A study of Mus musculus with 8 samples.

Results

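The genes of oxidative phosphorylation were followed in endothelial cells sorted from the lungs of mice given an nANGPTL4 AAV or a control AAV. AAV is adeno-associated virus, a vector used to carry a gene into tissue. Members were the genes whose symbols begin with Ndufa, Ndufb, Ndufc, Ndufs, Ndufv, Uqcr, Cox4, Cox5, Cox6, Cox7, Cox8 or Atp5, the genes Sdha, Sdhb, Sdhc and Sdhd, and the protein-coding genes of mitochondrial DNA (mt-Nd, mt-Co, mt-Atp and mt-Cytb). Symbols with -ps, which marks pseudogenes, were dropped. The rule took 108 of the 31610 genes in the count table, of which 95 are nuclear and 13 are encoded by mitochondrial DNA.

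All mice were C57BL/6J. The nANGPTL4 AAV group held 4 libraries and the control AAV group 4 libraries, described by the submitters as independent biological replicates. The nANGPTL4 AAV libraries carry NT Treated in their titles, an abbreviation without an explanation, so that group was taken from the treatment field. The age and sex of the mice, the promoter in the vector, its dose and the time after injection are not given in the sources used here. RNA came from cells isolated by flow cytometry and was amplified with a low-input cDNA kit.

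Oxidative phosphorylation passes electrons from NADH and succinate through complexes I to IV of the inner mitochondrial membrane to oxygen, and complex V uses the resulting proton gradient to make ATP. Complex II is built from nuclear genes alone, whereas complexes I, III, IV and V also need subunits made inside the mitochondrion from mitochondrial DNA. Endothelial cells are known for making much of their ATP by glycolysis, while their mitochondria also serve redox balance, biosynthesis and signalling.

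The 8 libraries held between 83183122 and 114337333 counts, with between 26652 and 29969 genes detected in each. The summed level of 8 endothelial markers was 13780 to 14541 counts per 1000000 counts (CPM) in nANGPTL4 AAV libraries and 14238 to 15082 CPM in control AAV libraries, and none of the 8 was at 0. Angptl4 itself averaged 5.04 ± 1.23 CPM in nANGPTL4 AAV libraries and 3.26 ± 0.466 CPM in control AAV libraries (SD, n = 4 each), with groups that did not overlap, and did not pass the adjusted threshold (adjusted p = 0.11, edgeR's quasi-likelihood test with Benjamini-Hochberg adjustment). Whether the Angptl4 reads came from the vector, the mouse gene or both was not tested. Markers of other cell types were low but present. The summed level of 6 lymphocyte markers was 2.02 to 4.07 CPM in nANGPTL4 AAV libraries and 1.57 to 1.94 CPM in control AAV libraries, and that of 8 epithelial markers was 128 to 253 CPM against 50.5 to 185 CPM. The secretory epithelial gene Scgb3a2 was the 1 of those 8 that passed the test, at 0.804 CPM in nANGPTL4 AAV libraries and 0.328 CPM in control AAV libraries (log2 fold change 1.30, adjusted p = 0.0369, edgeR's quasi-likelihood test). Of the 8 epithelial markers, 7 had a positive log2 fold change, among them Epcam at 0.0021. The other, Foxj1, went the other way, at 1.03 CPM in nANGPTL4 AAV and 1.86 CPM in control AAV libraries (log2 fold change -0.86). Summed myeloid markers were at 20.8 to 41.8 CPM in nANGPTL4 AAV and 9.89 to 32.8 CPM in control AAV libraries, and erythroid and platelet markers at 37.3 to 45.3 CPM and 21.1 to 39.0 CPM. The part of these other cells in the values below was not tested. In such bulk samples fewer cells of a type and less RNA per cell cannot be told apart.

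The first question was how completely each subunit had been counted, because copies of mitochondrial DNA lie in the nuclear genome and can share its sequence. The 13 mt-encoded genes fell into a high and a low group of counts that was the same in all 8 libraries. mt-Nd1, mt-Nd2, mt-Nd4, mt-Nd5 and mt-Nd6 of complex I, mt-Cytb of complex III and mt-Co1 of complex IV each had between 1944 and 60224 counts in a library. The other 6 were near 0. mt-Co2, the subunit that takes electrons from cytochrome c, had 23, 15, 21 and 20 counts in nANGPTL4 AAV libraries and 18, 25, 13 and 17 counts in control AAV libraries. mt-Co3, another core subunit of complex IV, had 26 to 42 counts in nANGPTL4 AAV libraries and 23 to 38 counts in control AAV libraries. The proton-channel subunit mt-Atp6 of complex V had 27 to 46 and 24 to 57 counts in the same order of groups. For the complex I subunits, mt-Nd3 stayed between 52 and 98 counts and mt-Nd4l between 0 and 3 counts over the 8 libraries. mt-Atp8 of complex V had 1 to 5 counts.

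The low group was also the group whose sequence is found elsewhere in the annotated transcripts. Every 31-base stretch of mt-Co2 (100% of them) also occurred in a transcript of another gene, as did 99.9% of mt-Co3, 99.5% of mt-Atp6, 98.9% of mt-Nd4l and 98.1% of mt-Nd3. Among the 7 high genes the share was 63.9% for mt-Co1, 62.8% for mt-Nd4, 16.8% for mt-Nd5, 13.5% for mt-Nd2, 7.36% for mt-Nd6, 6.55% for mt-Cytb and 0% for mt-Nd1. The copies of these 5 low genes lie side by side on chr1:24611535-24615565 (mm10), annotated as the unprocessed pseudogenes Gm28661 (mt-Co2), Gm10925 (mt-Atp6), Gm28437 (mt-Co3), Gm28438 (mt-Nd3) and Gm10222 (mt-Nd4l). The same block holds Gm28439, a copy of 876 bases of mt-Nd4 with 0 differences, although mt-Nd4 is a high gene with 9035 to 12123 counts in a library. Over the aligned bases, 0 of 681 differed between mt-Co2 and Gm28661, 0 of 678 between mt-Atp6 and Gm10925, 0 of 783 between mt-Co3 and Gm28437, and 1 of 345 between mt-Nd3 and Gm28438. The low gene mt-Atp8 had no annotated copy in the block, and its annotated share was 7.47%. On mitochondrial DNA 230 bases separate mt-Co2 from mt-Atp6 and hold the start of mt-Atp8, and on chromosome 1 an unannotated gap of 233 bases separates the copies of the same neighbours.

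The opening bases of mt-Co2 and of its chromosome 1 copy are shown as an identical pair. Bases 7 to 66 of mt-Cytb and of its copy are shown as a pair from the high group that can be told apart. Coordinates are mm10, the sequences are those of GENCODE M21 transcripts, and capitals mark the positions at which the mt-Cytb pair differ.
mt-Co2, chrM:7013-7072, plus strand: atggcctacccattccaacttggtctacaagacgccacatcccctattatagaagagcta
Gm28661, chr1:24615506-24615565, minus strand: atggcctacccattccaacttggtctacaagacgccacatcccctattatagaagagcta
mt-Cytb, chrM:14151-14210, plus strand: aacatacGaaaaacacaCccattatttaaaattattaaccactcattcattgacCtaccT
Gm11410, chr4:80003995-80004054, plus strand: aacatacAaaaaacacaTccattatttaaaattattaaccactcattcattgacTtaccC

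The mt-Co2 pair is identical over these 60 bases and the mt-Cytb pair differs at 4 of them. Over its whole aligned length Gm11410 differed from mt-Cytb at 82 of 1143 bases, and the copy of mt-Co1 on chromosome 2, Gm13340, differed at 37 of 1545. The pseudogenes had few counts too. Over all 8 libraries Gm28661 had 283 counts beside 152 for mt-Co2, Gm28437 had 675 beside 250 for mt-Co3, and Gm10925 had 622 beside 277 for mt-Atp6, whereas mt-Cytb had 386999. How the submitters treated reads that match several places is not given in the sources used here, and its part in the low counts was not tested. The counts of these 6 genes are therefore reported as counts and not as levels of the subunits.

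**Figure D1:**
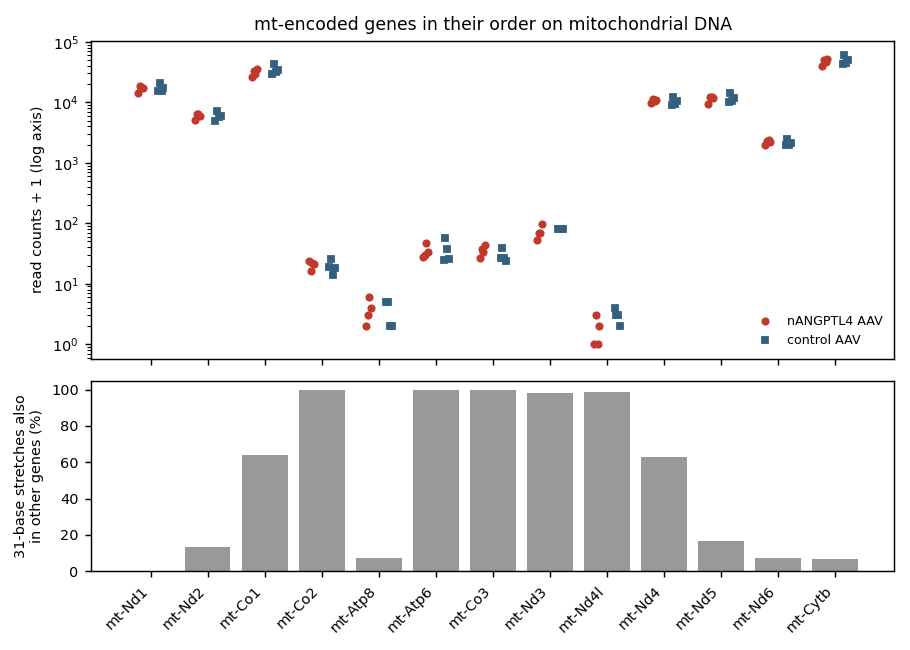
Read counts plus 1 per library on a log axis (upper panel, nANGPTL4 AAV circles left of control AAV squares) and the percent of each gene's 31-base stretches that also occur in another gene's transcript (lower panel) for the 13 mt-encoded genes in their order on mitochondrial DNA. The 7 genes with at least 1000 counts in every library (1944 or more) are separate from the other 6 (98 or fewer). Of those 6, 5 share 98.1% or more of their stretches.

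The plot of mt-encoded counts shows the split into high and low genes in both groups of libraries. Of the 7 well-counted genes, mt-Cytb had the highest level per transcript length, at 427 CPM per kilobase over all 8 libraries, followed by mt-Co1 at 214 and mt-Nd1 at 180. Lower levels were found for mt-Nd4 (77.0), mt-Nd5 (63.4), mt-Nd2 (58.1) and mt-Nd6 (42.4 CPM per kilobase). When only bases not shared with other genes were counted as length, mt-Co1 came first at 593 CPM per unshared kilobase, ahead of mt-Cytb at 457 and mt-Nd4 at 207. The order of the leading genes thus depended on how shared bases were treated. All mt-encoded members together took 0.126 ± 0.0114% of the counts of a library in nANGPTL4 AAV mice and 0.134 ± 0.00973% in control AAV mice (SD, n = 4 each), and the groups overlapped, with 0.115 to 0.136% against 0.122 to 0.143%.

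The nuclear subunits were compared as levels per length of the coding transcript. In complex I, the NADH dehydrogenase, the median of 36 genes was 55.7 CPM per kilobase, and the extremes were the core iron-sulfur subunit Ndufs7 at 118 and the accessory subunit Ndufb4 at 3.70. The 4 subunits of complex II, succinate dehydrogenase, ranged from 62.8 for the membrane anchor Sdhd to 116 for the iron-sulfur subunit Sdhb, with a median of 95 CPM per kilobase. The 8 genes of complex III, which passes electrons to cytochrome c, ranged from 35.7 for the Rieske iron-sulfur protein Uqcrfs1 to 136 for the core protein Uqcrc1, with a median of 94.5. The 11 common nuclear subunits of complex IV, cytochrome c oxidase, among them Ndufa4, whose product belongs to that complex despite its name, ranged from 21.6 for Cox7b to 287 for Cox6a1, around a median of 99.1. In complex V, the ATP synthase, the range over 16 subunits was 6.04 for Atp5l to 343 for the catalytic beta subunit Atp5b, and the median was 76.9 CPM per kilobase.

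Within complex V the subunits of one enzyme spread widely. The lowest of them, Atp5l and Atp5g2, shared much of their sequence with other genes. The membrane subunit Atp5l, at 3.28 CPM over all 8 libraries, shared 85.4% of its 31-base stretches with other genes, and the c-ring gene Atp5g2, at 10.2 CPM, shared 87.7%. Next lowest by CPM among the subunits were Atp5k at 12.1 CPM (18.9% shared) and Atp5mpl at 12.8 CPM (0% shared). The stator subunit Atp5o (63.2% shared, 55.2 CPM) and the complex III subunit Uqcrb (58.2%) were also above 50%. The complex I core subunit Ndufs3 (55.0%) was the last nuclear protein-coding member above 50%. The median level of these 5 was 30.5 CPM, against 43.2 CPM for the 31 members that shared 10 to 50% and 47.2 CPM for the 55 that shared less than 10%. These medians are CPM without division by length, and the class under 10% reached down to 0.0795 CPM. The levels of the 5 genes above 50% are uncertain, since their reads could be split with those copies, which was not tested.

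The comparison of nANGPTL4 AAV with control AAV mice found no nuclear or mt-encoded member past the threshold. At an adjusted p under 0.05 in edgeR's quasi-likelihood test with Benjamini-Hochberg adjustment over all 18874 tested genes, 0 of 93 tested nuclear members and 0 of 11 tested mt-encoded members were called, in a table where 0.138% of all tested genes were called (0.0477% higher and 0.0901% lower). The smallest adjusted p was 0.115 among nuclear and 0.208 among mt-encoded members. At an unadjusted p under 0.05 there were 6 nuclear members (5 higher and 1 lower) and 1 mt-encoded member (lower), beside 17.6% of all tested genes (7.35% higher and 10.3% lower). DESeq2 called 3 nuclear members, Cox4i2 and Ndufs5 higher and Ndufaf4 lower, and 0 mt-encoded ones. It called 6.14% of the 15580 genes to which it gave an adjusted p (1.98% higher and 4.16% lower), or 5.07% of all 18874 tested genes. The 26 genes called over the whole table became 1 or 2 when any single library was left out, and 0 members were called in each of those fits.

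The estimates were narrow. For 81 of the 93 nuclear members (87.1%) the 95% interval of the fold change lay within 0.32 on the log2 scale in either direction, against 43.9% of all tested genes. Expression level was not matched in this comparison, and the median SE was 0.059 over all tested genes with a log2 CPM above 3. The 12 nuclear members outside that bound included the tissue isoforms Cox4i2, Cox6a2, Cox6b2, Cox7a1 and Ndufa4l2, the assembly factors Ndufaf4, Ndufaf6 and Ndufaf8, and Atp5k. All 36 complex I subunits, all 4 of complex II, all 8 of complex III and all 11 common subunits of complex IV had intervals within that bound. The most highly expressed member, Atp5b, had 647, 654, 662 and 649 CPM in nANGPTL4 AAV libraries and 684, 669, 650 and 647 CPM in control AAV libraries. The groups overlapped, and the log2 fold change was -0.021 with a 95% interval of -0.11 to 0.067, and it turned to 0.023 with library size alone and 0.019 with upper quartile scaling.

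**Figure D2:**
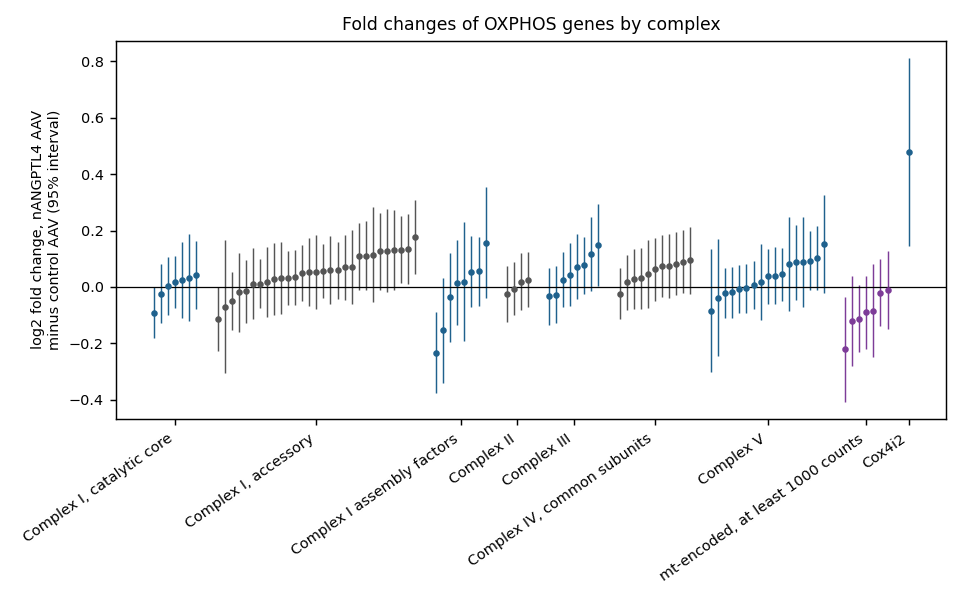
Log2 fold change (nANGPTL4 AAV minus control AAV) of the nuclear subunits by complex (for complex IV the common ones), the complex I assembly factors, the 7 mt-encoded genes with at least 1000 counts in every library and Cox4i2. Points are edgeR estimates sorted within each group and lines are 95% intervals. Complex II lies nearest 0, and the interval of Cox4i2, from 0.15 to 0.81, is the widest shown. The other tissue isoforms and paralogs of complex IV are not shown. Of these, Cox6b2 (-0.27 to 1.32), Cox6a2 (-0.76 to 1.08), Cox7a1 (-0.55 to 0.68) and Ndufa4l2 (-0.31 to 0.68) had wider intervals than Cox4i2, and Cox7a2l a narrower one.

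By complex, the small differences leaned upward on this scale. Of 36 complex I subunits 29 had a positive log2 fold change, with a median of 0.038, and the 29 accessory subunits among them had a median of 0.053 against 0.018 for the 7 nuclear catalytic core subunits. The median was 0.0065 over the 4 complex II subunits, 0.057 over the 8 of complex III, 0.074 over 17 tested genes of complex IV (0.062 over its 11 common subunits) and 0.038 over 17 of complex V, which include Atp5s. Over all 93 nuclear members 70 were positive and 23 negative, with a median of 0.042, beside 52.2% positive and a median of 0.0089 over all tested genes. Leaving out nANGPTL4 AAV library 1 gave a nuclear median of 0.067.

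Over the whole table the differences varied with transcript length. Oxidative phosphorylation subunits are small proteins, and the coding transcripts of tested nuclear members had a median of 680 bases against 2122 bases over all tested genes. Under 1000 bases the median log2 fold change was 0.062 for the 65 members of that length and 0.061 for all 4077 tested genes of that length. Between 1000 and 2000 bases it was -0.0058 for 23 members and 0.022 for 4774 genes, and over 2000 bases -0.0052 for 5 members and -0.021 for 9968 genes. Among members of under 1000 bases 87.7% were positive, against 64.9% of all genes of that length. Across the 93 members Spearman's rho between length and log2 fold change was -0.51, and -0.23 with the correction described next, as a description over genes that share the same 8 libraries. After a correction of every library for GC content and length, the nuclear median was 0.031 and the median of all tested genes 0.034, so that their difference changed to -0.0028 with the correction, against 0.033 without it.

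**Figure D3:**
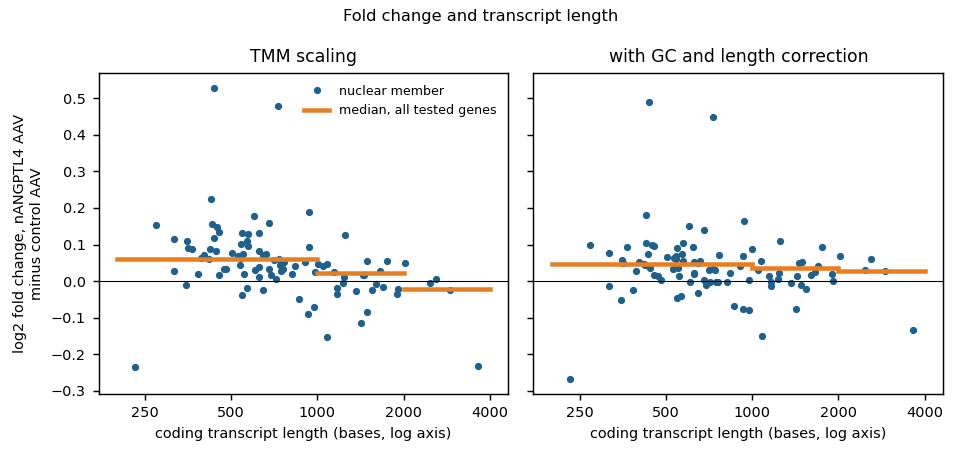
Log2 fold change (nANGPTL4 AAV minus control AAV) of the nuclear members against the length of the coding transcript on a log axis, with TMM scaling alone (left) and with a GC and length correction (right). Orange lines are the medians of all tested genes in 3 length classes; with TMM scaling they step from 0.061 to -0.021, and with the correction they lie between 0.047 and 0.028.

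Without any scaling factor the sums looked different. Nuclear members took 0.540 to 0.584% of all counts in nANGPTL4 AAV libraries and 0.521 to 0.537% in control AAV libraries, ranges that did not overlap. The TMM scaling factors, which adjust each library for its composition, did not overlap either, at 1.01 to 1.02 in nANGPTL4 AAV libraries and 0.969 to 0.994 in control AAV libraries. On the TMM scale the median deviation of nuclear members from their mean over the 8 libraries was -0.025 to 0.094 in nANGPTL4 AAV libraries and -0.076 to 0.020 in control AAV libraries, which overlapped. Scaling by library size alone shifted the median of all tested genes to 0.052 and that of nuclear members to 0.085, again 0.033 apart. On that scale 85 of 93 nuclear members were positive, beside 63.0% of all tested genes.

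Among complex I genes, 1 nuclear subunit had separate groups in the higher direction. Ndufs5 (chr4:123712710-123718202, minus strand, mm10), an accessory subunit of the membrane arm, had 12.7, 13.3, 12.6 and 12.3 CPM in nANGPTL4 AAV libraries and 11.4, 10.7, 11.2 and 11.7 CPM in control AAV libraries. The lowest nANGPTL4 AAV library exceeded the highest control. Its log2 fold change was 0.18 (SE 0.059), with an adjusted p of 0.160 in edgeR's quasi-likelihood test and 0.0497 in DESeq2, and up to 0.317 in the other alternatives. The accessory subunits Ndufa11 and Ndufb2 followed by unadjusted p. Ndufa11 had 44.7 to 50.8 CPM in nANGPTL4 AAV libraries and 40.8 to 45.6 CPM in control AAV libraries, with overlap (log2 fold change 0.13, adjusted p = 0.239, edgeR's quasi-likelihood test). Ndufb2 had 17.8 to 19.6 CPM in nANGPTL4 AAV libraries and 16.6 to 18.1 CPM in control AAV libraries, also with overlap (log2 fold change 0.13).

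Lower values with separate groups were found for a core and an accessory subunit. Ndufv2, a core subunit of the NADH-binding module that carries an iron-sulfur cluster, had 44.4, 46.6, 48.7 and 47.4 CPM in nANGPTL4 AAV libraries and 51.1, 49.1, 49.7 and 49.5 CPM in control AAV libraries. Its highest nANGPTL4 AAV library, at 48.7 CPM, lay just below its lowest control AAV library, at 49.1 CPM. Ndufab1, the mitochondrial acyl carrier protein, which is also a subunit of complex I, had 18.1, 17.2, 18.5 and 18.9 CPM in nANGPTL4 AAV libraries and 20.2, 19.1, 19.9 and 19.5 CPM in control AAV libraries. Their log2 fold changes were -0.091 and -0.11, and neither passed the adjusted threshold (adjusted p = 0.284 and 0.287, edgeR's quasi-likelihood test). With Ndufs5, Cox4i2 and the assembly factor Ndufaf4 these were the 5 nuclear members whose groups did not overlap, or 2 higher and 3 lower of 93, against 10.9% of all tested genes (3.89% higher and 6.99% lower).

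The rule also takes in Ndufaf1 to Ndufaf8, which help assemble complex I and are not part of it. Ndufaf4 (chr4:24898083-24905001, plus strand, mm10) had 13.2, 13.2, 13.7 and 13 CPM in nANGPTL4 AAV libraries and 14.2, 15.9, 17.1 and 15.4 CPM in control AAV libraries. All 4 nANGPTL4 AAV libraries were lower, and they lay closer together. The log2 fold change was -0.23 (SE 0.065), with an adjusted p of 0.115 in edgeR's quasi-likelihood test and 0.0288 in DESeq2, and up to 0.364 in the other alternatives. The GC and length correction moved it to -0.13. Ndufaf6 had a log2 fold change of -0.15, at 10 ± 0.993 CPM in nANGPTL4 AAV and 11.2 ± 0.707 CPM in control AAV libraries, and Ndufaf8 one of 0.16, at 12.6 ± 1.58 and 11.3 ± 0.570 CPM (SD, n = 4 each). Ndufaf6 was at -0.094 without nANGPTL4 AAV library 4, and Ndufaf8 at 0.085 without nANGPTL4 AAV library 2. The 8 assembly factors had a median of 0.017, with 5 positive and 3 negative.

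Complex II had the median nearest 0 of the 5 complexes. Sdha, the flavoprotein that oxidises succinate, had 275, 286, 295 and 282 CPM in nANGPTL4 AAV libraries and 307, 284, 283 and 283 CPM in control AAV libraries, and control AAV library 1 stood apart from the other controls. Its log2 fold change was -0.024, and the sign turned with library size alone (0.019), upper quartile scaling (0.016) and the GC and length correction (0.027). Sdhb, Sdhc and Sdhd had log2 fold changes of 0.026, 0.019 and -0.0058. In complex III the small subunits Uqcr11 and Uqcr10 had the smallest p-values. Uqcr11 had 43.1 to 54.2 CPM in nANGPTL4 AAV libraries and 41.4 to 44.1 CPM in control AAV libraries, with overlap, and a log2 fold change of 0.15 (adjusted p = 0.269, edgeR's quasi-likelihood test). Without nANGPTL4 AAV library 2, the one at 54.2 CPM, it was 0.091. The core proteins Uqcrc1 and Uqcrc2 had log2 fold changes of 0.026 and -0.034.

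In complex V the 3 smallest p-values belonged to Atp5j2, Atp5d and Atp5k, and none of them reached an unadjusted p of 0.05. Atp5d, the delta subunit of the central stalk, had 117 ± 6.87 CPM in nANGPTL4 AAV libraries and 110 ± 1.26 CPM in control AAV libraries, with a log2 fold change of 0.093. Atp5j2 and Atp5k, small membrane subunits, had log2 fold changes of 0.10 and 0.15. Atp5a1, the alpha subunit of the catalytic head, and Atp5c1, the gamma subunit of the central stalk, had values of -0.0052 and -0.020, and Atp5a1 turned positive with other scalings, the correction and the stricter filter, to at most 0.038. The 3 genes Atp5g1, Atp5g2 and Atp5g3 encode an identical mature c subunit, of which the proton-driven ring is made. Per length, Atp5g3 gave 65.1% of their summed level in nANGPTL4 AAV and 65.6% in control AAV libraries, Atp5g1 gave 22.8% in both, and Atp5g2 12.1% and 11.6%. Shared bases were kept in these lengths. Atp5g2 shared 87.7% of its 31-base stretches with other genes, Atp5g1 14.1% and Atp5g3 0%, so the split between the 3 genes is uncertain.

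Subunit isoforms are the members that differ most between tissues. Heart and skeletal muscle are known for Cox6a2, Cox7a1 and Cox8b in place of the common Cox6a1, Cox7a2 and Cox8a, and Cox4i2 is known as the lung isoform of subunit 4, where Cox4i1 is the common form. Per length, Cox6a2 made up 0.0584 ± 0.0361% of the Cox6a pair in nANGPTL4 AAV and 0.0544 ± 0.0199% in control AAV libraries. Cox8b made up 0.146 ± 0.0497% and 0.126 ± 0.0523% of the Cox8 pair, and the testis isoform Cox6b2 made up 0.328 ± 0.147% and 0.241 ± 0.0978% of the Cox6b pair (SD, n = 4 each, nANGPTL4 AAV before control AAV). The common isoforms gave nearly the whole of these pairs in every library. Cox7a1 was 0.489% and 0.491% of the Cox7a set, in which Cox7a2l, a supercomplex assembly factor, was 18.3% and 18.6% and Cox7a2 81.2% and 80.9%.

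Cox4i2 (chr2:152754173-152765037, plus strand, mm10) had the largest log2 fold change among the members whose groups did not overlap. It had 4.37, 4.84, 4.06 and 4.33 CPM in nANGPTL4 AAV libraries and 3.63, 2.86, 3.83 and 2.32 CPM in control AAV libraries, so that the groups did not overlap and the control libraries spread more. The means were 4.40 ± 0.323 CPM and 3.16 ± 0.70 CPM (SD, n = 4 each). The log2 fold change was 0.48 with a 95% interval of 0.15 to 0.81, and the adjusted p was 0.144 in edgeR's quasi-likelihood test and 0.0314 in DESeq2. Over all alternatives its adjusted p ranged from 0.0314 to 0.311. Per length Cox4i2 made up 2.70 ± 0.158% of the Cox4 pair in nANGPTL4 AAV and 1.99 ± 0.449% in control AAV libraries, while Cox4i1 had 163 ± 9.37 CPM and 160 ± 3.25 CPM. No 31-base stretch of Cox4i2 occurred in another gene.

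Cox4i2 is also known from mural cells of vessels, so mural and fibroblast markers are given beside it. Their 8 genes summed to 51.8 to 104 CPM in nANGPTL4 AAV libraries and 47.4 to 89.6 CPM in control AAV libraries, none was at 0, and none had separate groups in the higher direction. The pericyte genes Pdgfrb and Cspg4 averaged 9.05 and 1.5 CPM in nANGPTL4 AAV libraries and 7.86 and 1.59 CPM in control AAV libraries. Another gene of such cells, Ndufa4l2, a paralog of Ndufa4 that is induced under low oxygen, had 1.87, 2.5, 1.80 and 2.20 CPM in nANGPTL4 AAV libraries and 1.76, 1.26, 2.79 and 1.58 CPM in control AAV libraries, with overlap.

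**Figure D4:**
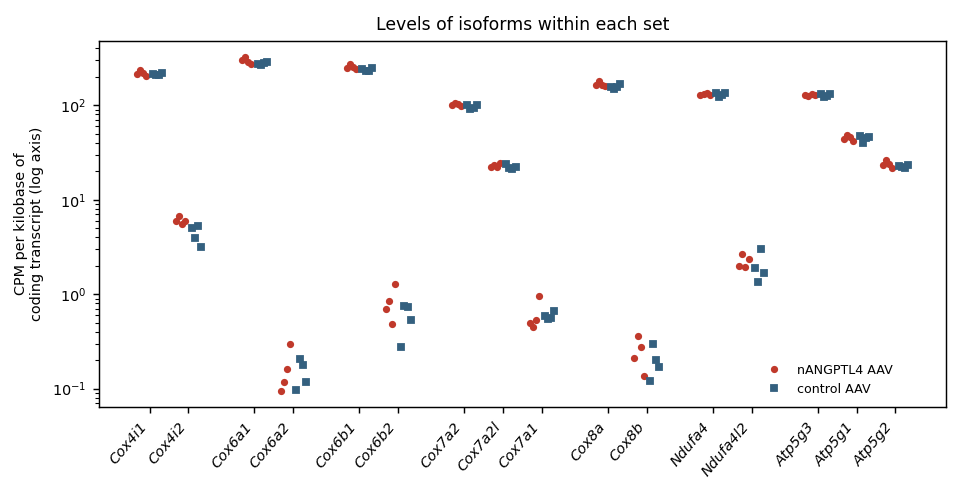
Levels of the isoforms in each set, as CPM per kilobase of coding transcript on a log axis, with 1 point per library (nANGPTL4 AAV circles left of control AAV squares). In each set the common isoforms lie above the tissue isoforms, and Cox4i2, at 5.20 CPM per kilobase over all 8 libraries, is the tissue isoform with separate groups.

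The plot of isoform levels shows Cox4i2 to be the highest of the tissue isoforms apart from Cox7a2l. Cardiac muscle markers were present at low levels, at 2.91 to 5.53 CPM over 6 genes in nANGPTL4 AAV libraries and 2.59 to 5.47 CPM in control AAV libraries. The complex IV subunits with the next smallest p-values after Cox4i2 were common ones. Cox6a1 had 155 to 183 CPM in nANGPTL4 AAV libraries and 153 to 164 CPM in control AAV libraries (log2 fold change 0.095), and Cox6b1 had 85.5 to 97.2 CPM and 81.7 to 88.4 CPM (log2 fold change 0.090). Neither reached an unadjusted p of 0.05, and the groups overlapped in both.

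The 7 well-counted mt-encoded genes all had negative log2 fold changes under TMM scaling, between -0.22 and -0.010. mt-Co1 (chrM:5328-6872, plus strand), the catalytic subunit of complex IV, had 283, 321, 269 and 348 CPM in nANGPTL4 AAV libraries and 326, 379, 380 and 339 CPM in control AAV libraries. The groups overlapped in 1 nANGPTL4 AAV library, the highest of its group. The means were 305 ± 36.0 CPM and 356 ± 28.0 CPM (SD, n = 4 each), and the log2 fold change was -0.22 with a 95% interval of -0.41 to -0.035 (adjusted p = 0.208, edgeR's quasi-likelihood test).

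The other 6 came closer to 0. mt-Cytb had 431, 502, 425 and 514 CPM in nANGPTL4 AAV libraries and 473, 533, 536 and 495 CPM in control AAV libraries, with overlap and a log2 fold change of -0.12. mt-Nd5 had a log2 fold change of -0.11, mt-Nd1 of -0.090, mt-Nd2 of -0.084, mt-Nd6 of -0.020 and mt-Nd4 of -0.010. Single libraries moved these values: without nANGPTL4 AAV library 1 they were -0.042 for mt-Nd1, -0.047 for mt-Nd2, -0.068 for mt-Nd5 and -0.074 for mt-Cytb. Without control AAV library 3, mt-Nd2 was -0.0091 and mt-Nd1 -0.056, without control AAV library 1 mt-Nd2 was -0.14, and without nANGPTL4 AAV library 3 mt-Cytb was -0.066. The signs of mt-Nd4 and mt-Nd6 turned with upper quartile scaling, library size alone and the GC and length correction, leaving 5 of 7 negative, and that of mt-Nd4 also with the mt genes left out of the library sizes (6 of 7). The median of the 7 was -0.090, as was that of all 11 tested mt-encoded members, which was -0.052 without control AAV library 3. With the GC and length correction the median was -0.020 beside 0.034 over all tested genes. Of these 7 genes all but mt-Nd6 lie on the plus strand of mitochondrial DNA. Those 6 are transcribed as long shared precursors, so they are not independent of each other. mt-Nd6 lies on the minus strand.

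**Figure D5:**
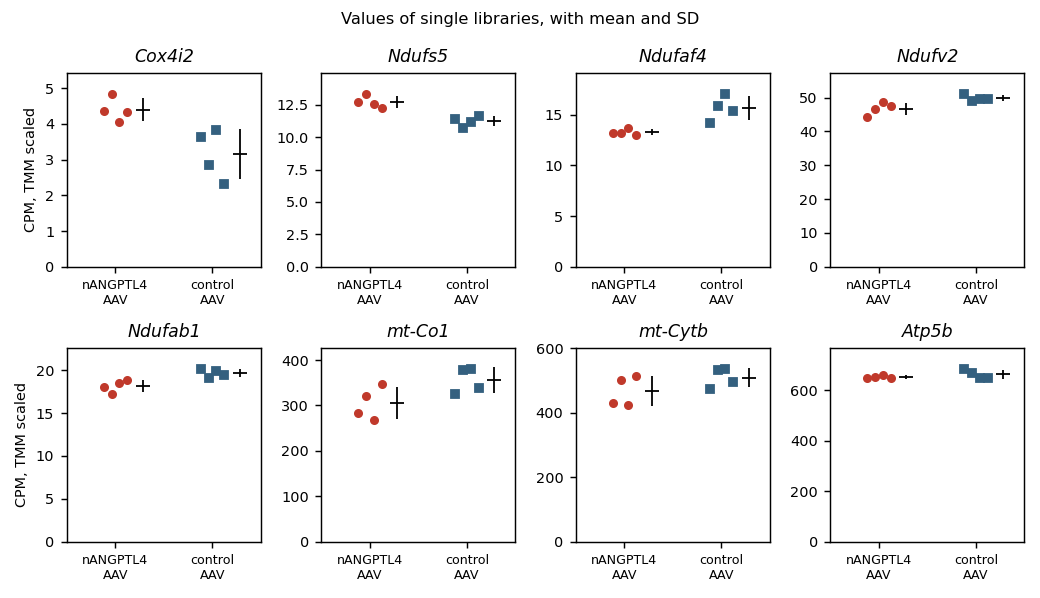
TMM-scaled CPM of each library for 8 members, nANGPTL4 AAV circles left of control AAV squares, with the mean and SD of each group as a bar beside the points and axes that start at 0. Groups are separate for Cox4i2, Ndufs5, Ndufaf4, Ndufv2 and Ndufab1 and overlap for mt-Co1, mt-Cytb and Atp5b.

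The plot of single libraries shows how small the separations are beside the levels for Ndufv2 and Ndufab1. The balance of the 2 genomes was compared as well. The ratio of nuclear member counts to counts of the 7 well-counted mt-encoded genes was 3.98 to 4.82 in nANGPTL4 AAV libraries. In control AAV libraries it was 3.70 to 4.37, with overlap. The 6 poorly counted mt-encoded genes were left out of this ratio.

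Many nuclear subunit genes are known targets of the transcription factor NRF1 and of ETS-family factors such as GABP (NRF2). Of the 95 nuclear members 73 had RefSeq promoters (GRCm38.p6, 250 bases before to 50 after the start), 78 in all. On either strand, 20 of the 78 (25.6%) held the NRF1 letters, which are GCGC, any base and TGCGC in a row, against 4.6% of 32851 promoters of the same length. The ETS letters CCGGAAG were in 18 (23.1%) against 8.86%, and TATAAA was in 7 (8.97%) against 13.6%. A match to the NRF1 letters can share only an end base with a match to the ETS letters, and 4 tested members held both.

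Stretches upstream of the start are shown for members named above, with Cox6a1 added as a gene with 2 matches, and capitals mark the NRF1 letters or their reverse complement. Each is written 5′ to 3′ in the direction of its gene.
Ndufs5, chr4:123718245-123718304, minus strand: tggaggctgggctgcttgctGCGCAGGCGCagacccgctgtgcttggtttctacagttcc
Ndufaf4, chr4:24897950-24898009, plus strand: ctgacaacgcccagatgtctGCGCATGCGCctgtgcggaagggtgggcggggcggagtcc
Ndufa11, chr17:56717682-56717741, plus strand: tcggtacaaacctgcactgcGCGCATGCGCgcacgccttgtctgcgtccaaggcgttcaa
Cox6a1, chr5:115349056-115349140, minus strand: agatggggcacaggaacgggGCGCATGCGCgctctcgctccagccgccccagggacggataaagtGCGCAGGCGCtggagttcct

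Members with and without the letters are set side by side as a description, with no test. Ndufs5 and Ndufaf4, which lay at opposite ends of the fold changes of complex I genes, both held it, 98 and 113 bases before the start. The median log2 fold change was 0.026 over the 19 tested members with the NRF1 letters and 0.049 over the 53 without, and it was 0.058 over 18 members with the ETS letters and 0.043 over 54 without. Median levels were 45.2 CPM with and 39.6 CPM without the NRF1 letters, and 50.6 CPM with and 37.3 CPM without the ETS letters. A match describes the letters in this window and is not a measurement of binding.

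Genes around the respiratory chain were described from lists by role, which were chosen with earlier results of these data known. None of these lists held a called gene at an adjusted p under 0.05 in edgeR's quasi-likelihood test. Their unadjusted counts and DESeq2 calls are given beside the shares of all tested genes. These shares were 17.6% at an unadjusted p under 0.05 (7.35% higher and 10.3% lower) and 5.07% called by DESeq2 (6.14% of the genes to which it gave an adjusted p). Of 27 tested genes that transcribe and maintain mitochondrial DNA, 7 had an unadjusted p under 0.05 (6 lower and 1 higher) and DESeq2 called 1, with a median log2 fold change of -0.083. The unadjusted share was 25.9%. Polrmt, the mitochondrial RNA polymerase, had 52.4 ± 1.94 CPM in nANGPTL4 AAV and 60.2 ± 3.92 CPM in control AAV libraries, with separate groups (log2 fold change -0.20, adjusted p = 0.107, edgeR's quasi-likelihood test). Mtpap, which adds poly(A) tails to mitochondrial RNA, had 37.4 ± 2.72 CPM and 42.5 ± 1.63 CPM, also with separate groups (SD, n = 4 each). Its log2 fold change was -0.18, which ranged from -0.21 to -0.11 over all alternatives.

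Of 17 tested nuclear regulators of these genes, 7 had an unadjusted p under 0.05, all lower, and DESeq2 called 3. The 7 genes are 41.2% of the list, against 10.3% of all tested genes lower at that p, in a list of few genes and with no test of the difference. The list was chosen with earlier results of these data known, and the part of that choice in the difference was not tested. Pprc1, a coactivator of the PGC-1 family, had 63.0, 47.7, 55.3 and 55.1 CPM in nANGPTL4 AAV libraries and 70.6, 81.6, 83.1 and 66.9 CPM in control AAV libraries. The groups were separate, and the log2 fold change was -0.45 (adjusted p = 0.0657, edgeR's quasi-likelihood test). Creb1, a cAMP-responsive transcription factor, had 79.9 ± 6.64 CPM in nANGPTL4 AAV and 96.5 ± 6.28 CPM in control AAV libraries (log2 fold change -0.27, adjusted p = 0.0902). The list's median was -0.095, and -0.042 with the GC and length correction, beside 0.034 over all tested genes.

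The tricarboxylic acid cycle and pyruvate entry list had 4 of 26 tested genes at an unadjusted p under 0.05, all lower, 2 DESeq2 calls and a median of -0.039. Its unadjusted share of 15.4% was near the 17.6% of all tested genes. Its leading gene was Pdp1, the phosphatase that activates pyruvate dehydrogenase, at 16.3 ± 1.51 CPM in nANGPTL4 AAV and 20.7 ± 0.613 CPM in control AAV libraries (log2 fold change -0.34, adjusted p = 0.0657, edgeR's quasi-likelihood test). Dld, the shared lipoamide dehydrogenase, had a log2 fold change of -0.19, which ranged from -0.23 to -0.11 over all alternatives. Of 26 genes for protein import and cristae 5 had an unadjusted p under 0.05 (3 lower and 2 higher), with a median of -0.042 and 1 DESeq2 call. Its share of 19.2% was also near that of all tested genes. The import receptor Tomm70a had 75.0 ± 2.13 CPM in nANGPTL4 AAV and 84.2 ± 1.85 CPM in control AAV libraries. The groups were separate (adjusted p = 0.0874, edgeR's quasi-likelihood test). Over all alternatives its log2 fold change ranged from -0.18 to -0.069.

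Assembly factors and electron carriers had smaller unadjusted shares than the 17.6% of all tested genes. Of 36 assembly factors for complexes III, IV and V, 4 had an unadjusted p under 0.05 (3 lower and 1 higher), an unadjusted share of 11.1%, DESeq2 called 2 and the median was -0.033. Tmem70, an ATP synthase assembly factor, had 26.8, 26.6, 27.9 and 27.3 CPM in nANGPTL4 AAV libraries and 30.2, 30.6, 30.5 and 30.2 CPM in control AAV libraries, with narrow and separate groups (log2 fold change -0.16, adjusted p = 0.101, edgeR's quasi-likelihood test). Coa5, for complex IV, had a log2 fold change of -0.14, which ranged from -0.15 to -0.068 over all alternatives. Of 11 complex I assembly factors outside the symbol rule, 1 had an unadjusted p under 0.05, DESeq2 called 0 and the median was -0.015. Tmem186 had a log2 fold change of -0.14 and Timmdc1 of 0.16.

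Of 22 electron carriers and other ubiquinone enzymes, 2 had an unadjusted p under 0.05, both higher, a share of 9.09%, with a median of 0.014 and 1 DESeq2 call. Both act in ubiquinone synthesis. Coq3, a methyltransferase, had 7.10, 6.56, 7.60 and 7.69 CPM in nANGPTL4 AAV libraries and 6.43, 5.30, 4.94 and 5.59 CPM in control AAV libraries, with separate groups and a log2 fold change of 0.38 (adjusted p = 0.102, edgeR's quasi-likelihood test). Coq8a, an atypical kinase, had 6.71 ± 1.47 CPM and 4.65 ± 1.10 CPM, with overlap and a log2 fold change of 0.53 (SD, n = 4 each). Of 15 genes for ATP export and coupling, 1 had an unadjusted p under 0.05, the acylcarnitine carrier Slc25a20 with a log2 fold change of 0.17, and DESeq2 called 0. Ucp3, an uncoupling protein known from muscle, averaged 0.194 CPM in nANGPTL4 AAV libraries and 0.128 CPM in control AAV libraries.

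These medians are small beside the choice of scaling. With library size alone the medians of the tricarboxylic acid cycle list (0.0050), of the import and cristae list (0.0021) and of both assembly factor lists (0.0096 and 0.027) were positive, while those of the mitochondrial DNA list (-0.041) and of the regulators (-0.051) stayed negative. Both assembly factor lists were also positive with the GC and length correction (0.0079 and 0.0044). The median of all tested genes moved too, from 0.0089 under TMM scaling to 0.052 with library size alone and 0.034 with the correction. The medians of the lists named in this paragraph lay below it in each of these settings.

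The lowest counts among nuclear members belonged to pseudogene copies and muscle isoforms. Ndufs6b, Ndufb4c, Ndufa11b and Cox6c2 are annotated as processed pseudogenes, and 3 of the 4 passed the filter on low counts, at 0.113 to 0.158 CPM in nANGPTL4 AAV and 0.114 to 0.136 CPM in control AAV libraries. Ndufb4c (3 to 6 counts in nANGPTL4 AAV and 3 to 10 in control AAV libraries) and Cox8b (5 to 13 and 4 to 12 counts) did not pass it and were not tested, nor were mt-Nd4l and mt-Atp8. Differences in these genes were not detectable at this depth. Atp5s, which the symbol rule takes in beside the ATP synthase, had a log2 fold change of -0.084.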

How the data were processed

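Gene-level read counts were deposited by the authors as 1 table of 8 libraries. Per the submitters' processing notes the genome build was mm10, and the aligner, the counter and the handling of reads with several matches are not given in the sources used here. Per the labels' protocols, RNA was purified with the PicoPure kit and copied to cDNA by a low-input method before library preparation. Of 31610 gene IDs, 31491 matched the GENCODE M21 annotation after the version was dropped. Of 115 symbols that fit the rule, 7 with -ps were removed. The members and the lists were chosen with earlier results of these data known.

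Counts were tested with edgeR 4.0.16 (quasi-likelihood F test, TMM scaling, filterByExpr with a minimum count of 10, group as the only term), with Benjamini-Hochberg adjustment over the 18874 genes that passed the filter and a threshold of 0.05. The biological coefficient of variation was 11.3%. Intervals are 95% intervals from the standard error and the degrees of freedom of the fit. CPM are TMM scaled, and levels between genes were compared per kilobase of the coding transcript. P-values set the difference between the groups against the spread between the 4 libraries of each group. The fit moderates that spread with information from all tested genes. The code was tested on simulated counts.

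Alternatives were upper quartile and RLE scaling, library size alone, mt genes left out of the library sizes, no filter, a stricter filter of at least 50 counts in at least 4 libraries, DESeq2 1.42.0, limma 3.58.1 with voom and quality weights, a robust fit, a replicate block, a GC and length offset (splines with 5 degrees of freedom), a threshold of 0.1 and leaving out each library. Named were every mt-encoded member, the 3 nuclear members of each complex (and of the complex I assembly factors) with the smallest p and the 2 with the highest level per length, every isoform with a count, and the 2 genes of each related list with the smallest p. Other members named (Ndufv2, Ndufab1, Uqcrc2, Atp5c1, the pseudogene copies and those with extreme levels or shared sequence) were chosen after their values were seen.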

Additional observations from a re-analysis of the deposited data

Results flagged for a closer look

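A library that stood far from the other 3 of its group, past Dixon's critical value, was found in 7 of 258 groups of 4 libraries, and chance alone gives about 1 in 20 such groups. The value given with each is the gap to the nearest other library as a share of the range of the group. Among nANGPTL4 AAV libraries, library 2 was high for the ATP synthase stator subunit Atp5f1 (67.9 CPM against 65.3 to 65.5 CPM in the other 3, 0.907), for the complex I subunit Ndufs6 (31.9 CPM against 29.2 to 29.6 CPM, 0.857) and for the complex I assembly factor Timmdc1 (5.28 CPM against 4.82 to 4.89 CPM, 0.852). Cox7a1, the muscle isoform of subunit 7a, had 0.379 CPM in nANGPTL4 AAV library 4 and 0.178 to 0.210 CPM in the other nANGPTL4 AAV libraries (0.843). Among control AAV libraries, Sdha had 307 CPM in library 1 and 283 to 284 CPM in the other 3 (0.940). Atp5l had 3.64 CPM in control AAV library 3 and 3.18 to 3.25 CPM in the others (0.860), and Ndufb4 had 4.16 CPM in control AAV library 4 and 3.44 to 3.56 CPM in the others (0.842).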

How the results depend on the processing

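No mt-encoded member was called under any alternative run, and nuclear members were called by DESeq2 alone (3). Over all tested genes edgeR called 26, against 956 with DESeq2, 471 at an adjusted p under 0.1, 59 with the robust fit, 17 with the stricter filter, 6 with the replicate block, 4 with library size only, 4 with upper quartile scaling, 1 with the GC and length correction and 1 to 2 with a library left out. The deviations of same-numbered libraries correlated at 0.138, 0.165, -0.254 and -0.308, and those of differently numbered ones at -0.371 to 0.310. These values do not settle whether the replicate numbers pair the libraries. The replicate block called 0 members. The median log2 fold change kept its sign in every alternative, at 0.031 to 0.085 for nuclear and -0.13 to -0.020 for mt-encoded members. Over 64 named genes and 19 settings, 48 of 1209 log2 fold changes turned sign, in 15 genes. With the GC and length correction these were Sdhc (-0.0015), Atp5g3 (-0.0035), Cox4i1 (-0.0016), Ndufs7 (-0.0011), Atp5g1 (-0.011), Sdha (0.027), Atp5a1 (0.031), mt-Nd4 (0.081) and mt-Nd6 (0.045). With library size only they were Atp5b (0.023), Sdha (0.019), Atp5a1 (0.038), mt-Nd4 (0.033) and mt-Nd6 (0.023), and with upper quartile scaling Atp5b (0.019), Sdha (0.016), Atp5a1 (0.035), mt-Nd4 (0.029) and mt-Nd6 (0.019). With mt genes left out Atp5a1 (0.0062) and mt-Nd4 (0.00082) turned, with the stricter filter Atp5a1 (0.0096) and mt-Nd4 (0.0043), and with limma-voom Cox7a1 (-0.00084). With a library left out the ranges that crossed 0 were -0.0023 to 0.028 for Atp5g3, -0.0024 to 0.040 for Ndufa4, -0.25 to 0.19 for Cox7a1, -0.27 to 0.39 for Cox6a2, -0.027 to 0.084 for Ndufs7, -0.033 to 0.0036 for Atp5b, -0.016 to 0.055 for Atp5g1, -0.035 to 0.013 for Sdha, -0.012 to 0.017 for Atp5a1, -0.064 to 0.18 for mt-Co2, -0.31 to 0.054 for mt-Atp6, -0.035 to 0.047 for mt-Nd4 and -0.030 to 0.027 for mt-Nd6. The cause was not tested. Low counts limit the precision of the pseudogene copies and the muscle isoforms.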
